A study of Mus musculus with 12 samples.

Results

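The NF-kB subunits and inhibitors were read as 10 genes of 29542 in the deposited files. They were chosen by name: 6 inhibitors (Tnfaip3, Nfkbia, Nfkbib, Nfkbie, Nfkbiz and Nfkbid) and 4 subunits (Nfkb1, Nfkb2, Rel and Relb). Their transcripts were summed per gene in each of 12 RNA-seq libraries of group 2 innate lymphoid cells (ILC2s), lymphocytes that make type 2 cytokines and carry no rearranged antigen receptor. All 10 genes passed the filter on low counts, which left 14431 genes for testing.

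NF-kB is a family of dimeric transcription factors held in the cytoplasm by IkB proteins. When a receptor signals, the IkB kinase marks the IkB proteins for destruction and the dimers enter the nucleus. Several inhibitor genes, Nfkbia and Tnfaip3 among them, are themselves induced by NF-kB and so form a feedback loop. In ILC2s the receptor for IL-33 signals through MyD88 to NF-kB.

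All cells came from C57BL6 mixed marrow chimeras. CD45.1 hosts were irradiated with 950 cGy and reconstituted with equal parts of marrow from WT mice carrying CD90.1 and from Rag1-/- mice carrying CD45.2, so both donor genotypes developed in the same kind of WT host. IL-33 was given daily for 7 days before harvest, at 30 ng into each cheek and 240 ng into the peritoneum, and ILC2s were sorted from skin-draining lymph nodes. The 4 groups, each of 3 libraries, were Rag1-/--labelled cells at 20 weeks after transplant, WT-labelled cells at 20 weeks, Rag1-/--labelled cells at 8 weeks and WT-labelled cells at 8 weeks. There was no group without IL-33. The labels give no age for the mice. For the later harvest the series text states a different interval from the sample labels, whose 20 weeks were used here. The labels do not say that the replicates of a group were separate animals or pools, and p-values measure only the library-to-library spread, which may be technical. Each host held both donor marrows, and the labels do not say whether libraries of both genotypes came from the same hosts. Libraries of a time may thus not be independent, while fits averaged over genotypes treated them as such. With no dates of harvest or sequencing in the labels, the interval after transplant cannot be told apart from a batch.

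Depth was 11433625 to 32529806 estimated reads per library. Rag1 reads were found only in Rag1-/--labelled libraries, with 0 in all 6 WT-labelled libraries. Estimated Rag1 reads were 13.2, 18.4 and 10.8 in Rag1-/--labelled libraries of 20 weeks and 0, 14.5 and 12.2 in those of 8 weeks. They are too few to tell whether the labels are right or exchanged, so the genotype names below are those of the labels. The direction of every genotype estimate depends on these labels. Thy1, which encodes CD90, the protein whose CD90.1 form marks the WT donor, was at 25.4 ± 8.39 CPM in Rag1-/--labelled and 4.04 ± 1.14 CPM in WT-labelled libraries (SD, n = 6 each), a log2 fold change of 2.63 (SE 0.25, edgeR adjusted p = 0.000463). The ILC2 marker Gata3 was at 554 to 1357 CPM in the 12 libraries and Il1rl1, which encodes the IL-33 receptor, at 167 to 336 CPM. In a principal component analysis, WT-labelled replicate 2 of 8 weeks stood apart on the first component (24.2% of variance) and Rag1-/--labelled replicate 3 of 8 weeks on the second (17.3%). Values of the members over time are given below with and without both libraries.

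Promoter windows are printed for the members with the greatest estimates below (Tnfaip3, Nfkbia, Nfkbid and Rel) and for Nfkb2, whose window holds the most kB matches. RefSeq windows of GRCm38.p6 were found for 7 of the 10 members, 12 windows in all, and each was read over the 250 bases before the annotated start. The kB consensus, the 10-base sequence that NF-kB dimers bind (GGG, a purine, any base, A or T, a pair of pyrimidines, CC), was searched on both strands. At least 1 match was found in 8 of the 12 member windows and in 6 of the 7 members, against 3.9% of all 32851 windows of the same length. Windows of 1 gene can share sequence, and a match is a description, not proof of binding. In the sequences below, written 5′ to 3′ on the gene's strand, capitals mark the matches.
Tnfaip3, chr10:19015411-19015660, minus strand: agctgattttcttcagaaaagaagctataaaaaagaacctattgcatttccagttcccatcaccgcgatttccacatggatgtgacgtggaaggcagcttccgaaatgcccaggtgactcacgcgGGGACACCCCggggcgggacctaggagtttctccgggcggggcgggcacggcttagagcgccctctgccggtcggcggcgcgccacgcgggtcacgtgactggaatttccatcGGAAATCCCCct
Tnfaip3, chr10:19011964-19012213, minus strand: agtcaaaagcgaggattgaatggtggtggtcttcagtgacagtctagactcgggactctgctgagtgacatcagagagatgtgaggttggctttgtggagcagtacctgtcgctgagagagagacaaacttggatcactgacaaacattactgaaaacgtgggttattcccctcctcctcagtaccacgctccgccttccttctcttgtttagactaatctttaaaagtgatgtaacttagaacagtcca
Nfkbia, chr12:55492648-55492897, minus strand: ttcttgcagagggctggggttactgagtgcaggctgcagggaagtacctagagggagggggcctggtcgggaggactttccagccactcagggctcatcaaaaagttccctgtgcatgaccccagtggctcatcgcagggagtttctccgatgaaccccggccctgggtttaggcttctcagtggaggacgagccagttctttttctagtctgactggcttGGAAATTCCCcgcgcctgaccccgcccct
Nfkbid, chr7:30422156-30422405, plus strand: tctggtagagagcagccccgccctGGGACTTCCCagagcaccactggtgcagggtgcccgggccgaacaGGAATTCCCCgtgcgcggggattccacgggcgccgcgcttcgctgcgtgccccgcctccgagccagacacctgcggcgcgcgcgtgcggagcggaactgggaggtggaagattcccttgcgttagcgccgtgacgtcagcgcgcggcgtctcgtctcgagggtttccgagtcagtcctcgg
Nfkb2, chr19:46304487-46304736, plus strand: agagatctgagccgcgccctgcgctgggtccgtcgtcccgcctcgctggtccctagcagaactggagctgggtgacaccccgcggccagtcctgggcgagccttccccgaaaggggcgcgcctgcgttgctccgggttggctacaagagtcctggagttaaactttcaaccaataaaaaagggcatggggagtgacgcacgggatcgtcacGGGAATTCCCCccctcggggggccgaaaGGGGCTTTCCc
Rel, chr11:23770970-23771219, minus strand: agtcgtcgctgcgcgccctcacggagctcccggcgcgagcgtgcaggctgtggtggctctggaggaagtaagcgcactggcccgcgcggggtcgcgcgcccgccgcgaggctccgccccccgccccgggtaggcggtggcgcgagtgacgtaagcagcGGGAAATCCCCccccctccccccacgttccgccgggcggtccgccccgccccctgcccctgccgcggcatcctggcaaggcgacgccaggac
Matches are placed by their first base, with -1 the last base before the start. Tnfaip3 has 2 windows. That of the model Tnfaip3-201 held matches at -125 and -12, while that of Tnfaip3-202, the model given the most reads in every library, held none. Nfkbia held a match at -29, and Nfkbid held matches at -226 and -181 in the window shown and none in its other 2. Nfkb2 held 3 matches in its first window, at -39, -38 and -11, and Rel held a pair at -92 and -91; matches 1 base apart overlap. Windows with 2 or more matches made up 0.493% of all windows, and windows with 3 or more 0.0426%. Nfkbie held 1 match at -106 and Nfkbib none.

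Levels are compared between members in TPM, a transcript abundance corrected for length. Nfkb1, which encodes the p105 precursor of p50, was the most abundant at 550 ± 93.2 TPM over the 12 libraries (SD), and Nfkbia, which encodes the main IkB protein IkBα, followed at 346 ± 134 TPM. Nfkb1 was above Nfkbia in 10 of 12 libraries, and Nfkbia above Tnfaip3 in all 12. The other 8 members lay far below. Tnfaip3, which encodes the ubiquitin-editing enzyme A20, was at 37.7 ± 21.2 TPM and Nfkbib, which encodes IkBβ, at 33.7 ± 10.3 TPM. Their ranges overlap, and Tnfaip3 was the higher in 5 libraries. Nfkbid at 14.9 ± 8.24 TPM and Nfkbie at 14.5 ± 4.46 TPM likewise overlap, with Nfkbid the higher in 6 libraries. Nfkbiz was at 8.70 ± 1.71 TPM, Nfkb2 at 6.72 ± 3.11 TPM, Relb at 3.77 ± 0.778 TPM and Rel at 2.22 ± 1.06 TPM. In this lower part of the order each gene was above the next in 8 to 10 of the 12 libraries. The Rel model in the files is 2799 bases long and 7466 in GENCODE M21, so the Rel level is that of the shorter model. Nfkb1 was 96.7% to 98.5% of subunit TPM and Nfkbia 68.1% to 81.8% of inhibitor TPM, so sums over either class mostly follow 1 gene.

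**Figure D1:**
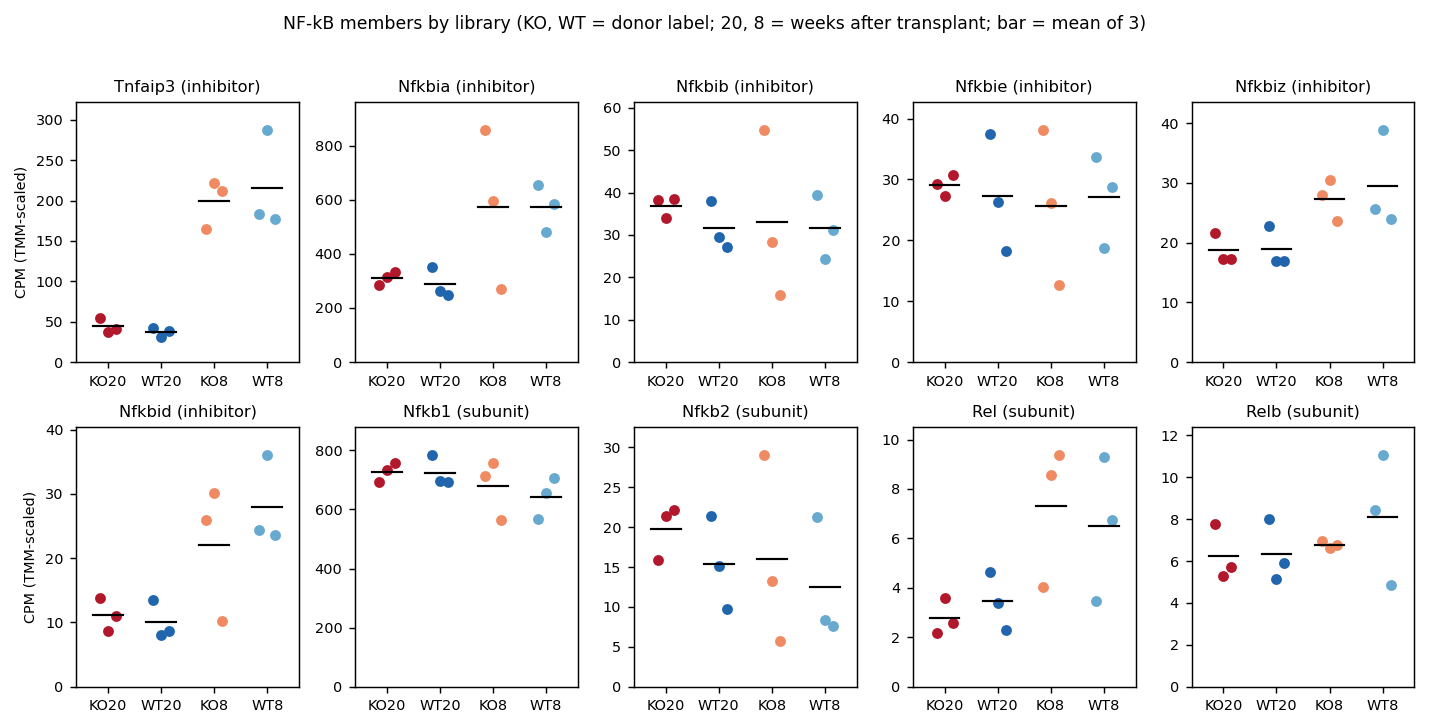
Each panel shows 1 member, with the 3 libraries of each group as points and their mean as a bar, in CPM scaled by TMM factors. Tnfaip3 was at 30.9 to 54.7 CPM in the 6 libraries of 20 weeks and at 165 to 287 CPM in the 6 of 8 weeks, while donor genotypes overlap in every panel.

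The first axis of the design is donor genotype, Rag1-/- against WT. No member was called different between genotypes. Averaged over times, log2 fold changes of Rag1-/--labelled over WT-labelled cells ran from -0.14 (SE 0.23) for Relb to 0.36 (SE 0.37) for Nfkb2. By edgeR's quasi-likelihood test with Benjamini-Hochberg adjustment over all genes, 0 of 10 members were called, beside 0.222% of all genes tested. The count was also 0 at 20 weeks, beside 0.0554% of genes, at 8 weeks, beside 0.201%, and for the genotype by time interaction, beside 0.097%. At an unadjusted p under 0.05 it was 0 of 10 in each of these, beside 3.71% of all genes for the average, 2.08% at 20 weeks, 3.62% at 8 weeks and 2.18% for the interaction. DESeq2 and limma-voom also called 0 members in all 4.

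Tnfaip3 had 54.7, 37.0 and 40.9 CPM in Rag1-/--labelled libraries of 20 weeks and 42.4, 30.9 and 38.8 CPM in WT-labelled libraries of that time. At 8 weeks it had 165, 222 and 212 CPM in Rag1-/--labelled libraries and 183, 287 and 177 CPM in WT-labelled libraries. The genotypes overlapped at both times. Nfkb2, which encodes the p100 precursor of p52 in the alternative pathway, showed the greatest genotype estimate. It had 15.9, 21.3 and 22.2 CPM in Rag1-/--labelled libraries of 20 weeks against 21.4, 15.1 and 9.80 CPM in WT-labelled ones, which overlap. At 8 weeks it spread from 5.79 to 29.1 CPM in Rag1-/--labelled and from 7.66 to 21.3 CPM in WT-labelled libraries, wider than the difference between group means. Standard errors of the 10 averaged genotype estimates were 0.12 (Nfkb1) to 0.37 (Nfkb2), so small differences were not detectable in this design.

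The other axis of the design is time after transplant, 20 weeks against 8 weeks. Time contrasts use the same libraries as the genotype contrasts. Averaged over genotypes, 2 of 10 members were called, both inhibitors and both lower at 20 weeks, beside 2.9% of all genes called and 1.93% called lower. Of all genes, 419 were called and 278 of them were lower; without scaling factors 500 were called and 90 were lower, since the median of all genes then stood 0.22 higher on the log2 scale. Tnfaip3 and Nfkbid were these members, and 0 of the 4 subunits were called. At an unadjusted p under 0.05 there were 5 members, all lower: Tnfaip3, Nfkbia, Nfkbiz, Nfkbid and Rel. Such p-values were met by 18.6% of all genes, and by 10.5% with a lower value. Within a genotype 5 of 10 members met it in Rag1-/--labelled cells, beside 8.33% of all genes, and 4 of 10 in WT-labelled cells, beside 13.3%.

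Tnfaip3 (ENSMUSG00000019850, chr10:19000910-19015657, GRCm38) encodes A20, which removes and edits ubiquitin chains on signalling adaptors upstream of the IkB kinase. All 6 libraries of 20 weeks (30.9 to 54.7 CPM, median 39.8) lay below all 6 of 8 weeks (165 to 287 CPM, median 197). Its mean was 40.8 ± 7.90 CPM at 20 weeks and 208 ± 44.5 CPM at 8 weeks (SD, n = 6 libraries each, which may share hosts). The averaged log2 fold change was -2.35 (SE 0.18, edgeR adjusted p = 5.28e-05), 5.11-fold lower at 20 weeks. The size was smaller on the length-corrected scale, at -1.79 with length-scaled counts (edgeR adjusted p = 0.000555), and Tnfaip3 averaged 19.4 ± 6.42 TPM at 20 weeks and 56.1 ± 11.6 TPM at 8 weeks (SD, n = 6 each). With counts as deposited the log2 fold change was -2.18 (SE 0.25, edgeR adjusted p = 0.0144) in Rag1-/--labelled and -2.53 (SE 0.25, edgeR adjusted p = 0.000346) in WT-labelled cells. In each genotype Tnfaip3 was the only member called, beside 0.0624% of genes in Rag1-/--labelled and 0.513% in WT-labelled cells. Without both libraries that stood apart the averaged value was -2.20 (edgeR adjusted p = 4.68e-05).

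The call within Rag1-/--labelled cells was lost in 7 of 22 alternatives. They were counts scaled from TPM by length (log2 fold change -1.46, adjusted p = 0.136), the thread number as a covariate (adjusted p = 0.0585) and the fit of the Rag1-/--labelled libraries alone (adjusted p = 0.0812), all by edgeR. Leaving out Rag1-/--labelled replicate 1, 2 or 3 of 20 weeks gave edgeR adjusted p = 0.0596, 0.114 and 0.117, and leaving out Rag1-/--labelled replicate 2 of 8 weeks gave 0.0569. The direction was kept in all of these. In WT-labelled cells and averaged over genotypes the call held in every alternative run. File headers record 8 threads for 6 libraries and 24 for 6, which may mark separate runs. Among libraries of 8 threads Tnfaip3 was at 42.4 and 30.9 CPM at 20 weeks and at 165, 212, 183 and 287 CPM at 8 weeks. Among those of 24 threads it was at 54.7, 37.0, 40.9 and 38.8 CPM at 20 weeks and at 222 and 177 CPM at 8 weeks. The libraries of 20 weeks with 8 threads were all WT-labelled, and a thread number records neither harvest nor sequencing. The part of a run in the difference between times was not tested.

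Nfkbid (ENSMUSG00000036931, chr7:30421732-30428746) encodes IkBNS, a nuclear IkB protein that binds p50 at promoters. It had 13.8, 8.65 and 10.97 CPM in Rag1-/--labelled and 13.5, 8.01 and 8.65 CPM in WT-labelled libraries of 20 weeks. At 8 weeks it had 25.9, 30.1 and 10.2 CPM in Rag1-/--labelled and 24.3, 36.1 and 23.6 CPM in WT-labelled libraries. The times overlapped only through Rag1-/--labelled replicate 3 of 8 weeks. The averaged log2 fold change was -1.23 (SE 0.27, edgeR adjusted p = 0.0343), 2.35-fold lower at 20 weeks. Within a genotype it was not called, at -0.99 (edgeR adjusted p = 0.519) in Rag1-/--labelled and -1.47 (edgeR adjusted p = 0.134) in WT-labelled cells. This call stood close to the threshold: it was lost without scaling factors (edgeR adjusted p = 0.0716), with the thread covariate (0.0819) and in 10 of 12 fits that left out 1 library (0.0519 to 0.1). It was kept when WT-labelled replicate 3 or Rag1-/--labelled replicate 3 of 8 weeks was left out, and without both libraries that stood apart it was -1.28 (edgeR adjusted p = 0.00539).

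Nfkbia (ENSMUSG00000021025, chr12:55489410-55492647) encodes IkBα, which retains p50 and RelA dimers in the cytoplasm. In libraries of 20 weeks it had 285, 316 and 333 CPM in Rag1-/--labelled and 353, 261 and 246 CPM in WT-labelled cells. In libraries of 8 weeks it had 857, 596 and 269 CPM in Rag1-/--labelled and 653, 482 and 585 CPM in WT-labelled cells. As for Nfkbid, the times overlapped only through Rag1-/--labelled replicate 3 of 8 weeks. The averaged log2 fold change of -0.94 (SE 0.23, edgeR adjusted p = 0.0525) missed the threshold. Without that library it was -1.11 (edgeR adjusted p = 0.00424), and without both libraries that stood apart -1.16 (edgeR adjusted p = 0.00185). DESeq2 (adjusted p = 0.00256) and edgeR with RLE size factors (adjusted p = 0.0493) also called it.

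Nfkbiz (ENSMUSG00000035356, chr16:55811375-55838899) encodes IkBζ, a nuclear IkB protein that can activate as well as restrain NF-kB targets. It was at 21.7, 17.3 and 17.3 CPM in Rag1-/--labelled and 22.7, 17.0 and 16.9 CPM in WT-labelled libraries of 20 weeks, which gave 16.9 to 22.7 CPM over both. At 8 weeks it was at 27.9, 30.5 and 23.6 CPM in Rag1-/--labelled and 25.6, 38.8 and 24.02 CPM in WT-labelled libraries. All libraries of 20 weeks lay below all of 8 weeks, as for Tnfaip3. That made 2 of 10 members, beside 2.47% of all genes, that were lower without overlap. The averaged log2 fold change was -0.59 (SE 0.16, edgeR adjusted p = 0.0756), not called. It was called by DESeq2 (adjusted p = 0.0156), without both libraries that stood apart (edgeR adjusted p = 0.0497) and without WT-labelled replicate 3 of 8 weeks (edgeR adjusted p = 0.0434).

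The other 2 inhibitors showed no such difference. Nfkbib (ENSMUSG00000030595, chr7:28758251-28767512), which encodes IkBβ, was at 27.1 to 38.5 CPM at 20 weeks and 15.9 to 54.7 CPM at 8 weeks. Its averaged log2 fold change was 0.08 (SE 0.25), and that of Nfkbie (ENSMUSG00000023947, chr17:45555703-45563169), which encodes IkBε, was 0.10 (SE 0.26). Nfkbie was at 18.2 to 37.5 CPM at 20 weeks and 12.7 to 38.1 CPM at 8 weeks, so for both genes the range at 20 weeks lay inside that at 8 weeks. The lowest value of both genes was that of Rag1-/--labelled replicate 3 of 8 weeks. Without both libraries that stood apart the estimates were -0.16 for Nfkbib and -0.16 for Nfkbie, neither called. Nfkbib overlaps Ccer2 and Sirt2 on the other strand, and since the strand of counting is not stated, reads of the overlap cannot be told apart.

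Among the subunits, Nfkb1 (ENSMUSG00000028163, chr3:135584655-135691547) was at 693, 735 and 756 CPM in Rag1-/--labelled and 784, 697 and 692 CPM in WT-labelled libraries of 20 weeks. At 8 weeks it was at 713, 757 and 565 CPM in Rag1-/--labelled and 568, 654 and 707 CPM in WT-labelled libraries. The ranges overlapped, with an averaged log2 fold change of 0.14 (SE 0.12). Nfkb2 (ENSMUSG00000025225, chr19:46304320-46312385) was at 9.80 to 22.2 CPM at 20 weeks and 5.79 to 29.1 CPM at 8 weeks, with 0.30 (SE 0.37). It overlaps Psd on the other strand. Relb (ENSMUSG00000002983, chr7:19606217-19629438), the partner of p52, was at 5.14 to 8.01 CPM at 20 weeks and 4.84 to 11.1 CPM at 8 weeks, with -0.23 (SE 0.23). None of these 3 was called under any alternative. Without both libraries that stood apart the estimates were 0.09 for Nfkb1, -0.0021 for Nfkb2 and -0.09 for Relb.

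Rel (ENSMUSG00000020275, chr11:23736847-23770970), which encodes c-Rel, was the subunit with the greatest estimate. It was at 2.19, 3.58 and 2.59 CPM in Rag1-/--labelled and 4.65, 3.40 and 2.31 CPM in WT-labelled libraries of 20 weeks. At 8 weeks it was at 4.02, 8.58 and 9.38 CPM in Rag1-/--labelled and 3.45, 9.29 and 6.74 CPM in WT-labelled libraries. Replicate 1 of each genotype at 8 weeks lay within the range of 20 weeks. The averaged log2 fold change was -1.14 (SE 0.31, edgeR adjusted p = 0.0755), not called. DESeq2 (adjusted p = 0.0125) and edgeR without Rag1-/--labelled replicate 1 of 8 weeks (adjusted p = 0.0496) called it, and none of the other alternatives did. It was -0.85 without both libraries that stood apart (edgeR adjusted p = 0.138), -1.12 with the thread covariate (edgeR adjusted p = 0.156) and -0.95 by limma-voom (adjusted p = 0.123).

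**Figure D2:**
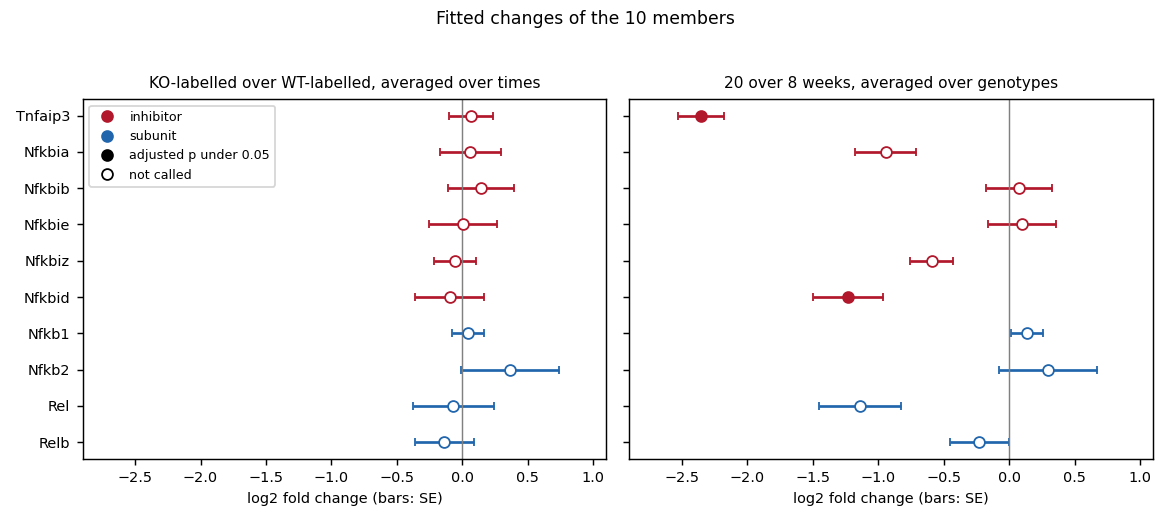
Points give the fitted log2 fold change of each member with its SE, for Rag1-/--labelled over WT-labelled cells (left) and for 20 over 8 weeks (right). Filled points are called at an adjusted p under 0.05: none at left, and Tnfaip3 at -2.35 and Nfkbid at -1.23 at right.

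Inhibitors and subunits were then set side by side. Over time the 6 inhibitors had a median log2 fold change of -0.77 and the 4 subunits -0.05, beside 0.02 over all genes. Between genotypes the medians were 0.03 for inhibitors, -0.01 for subunits and 0.01 for all genes. Per library, the inhibitors summed to 382, 372 and 382 TPM in Rag1-/--labelled and 412, 313 and 260 TPM in WT-labelled libraries of 20 weeks. They summed to 768, 588 and 295 TPM in Rag1-/--labelled and 641, 492 and 566 TPM in WT-labelled libraries of 8 weeks. Subunits summed to 554 to 691 TPM at 20 weeks and 401 to 571 TPM at 8 weeks. Summed subunit TPM thus exceeded summed inhibitor TPM in all 6 libraries of 20 weeks and in 1 of 6 of 8 weeks, Rag1-/--labelled replicate 3. The subunit sum leaves out Rela and is 96.7% to 98.5% Nfkb1. Models annotated as protein coding held only 0.336% to 9.01% of Nfkb1 TPM, as described below. The sums therefore do not give a balance of full-length subunits and inhibitors.

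The log2 ratio of inhibitor to subunit TPM was -0.78 ± 0.06 in Rag1-/--labelled and -0.95 ± 0.18 in WT-labelled cells of 20 weeks. It was 0.05 ± 0.50 in Rag1-/--labelled and 0.24 ± 0.26 in WT-labelled cells of 8 weeks (SD, n = 3 each). The ratio spanned -1.09 to -0.74 at 20 weeks and -0.44 to 0.56 at 8 weeks, without overlap, and 20 weeks minus 8 weeks was -1.01. Rag1-/--labelled minus WT-labelled was -0.01. No test is given, since the members were chosen with results known. When Nfkbia and Nfkb1 were left out the difference between times was -0.64, as the mean of log2(TPM + 1) -0.54, and without Tnfaip3 -0.92.

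**Figure D3:**
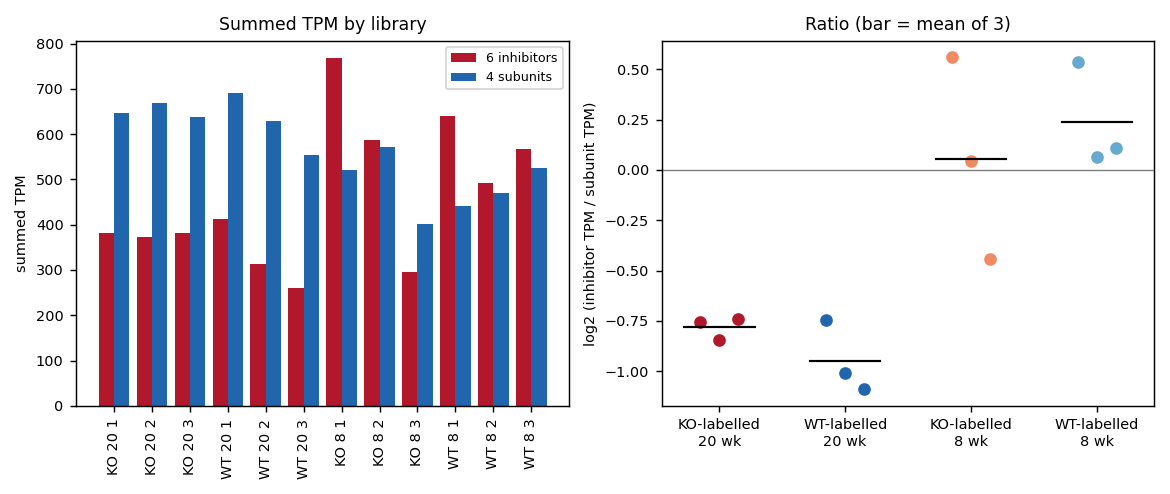
Left, summed TPM of the 6 inhibitors and the 4 subunits in each library. Right, the log2 ratio of the sums, with the 3 libraries of each group as points and their mean as a bar: -1.09 to -0.74 at 20 weeks and -0.44 to 0.56 at 8 weeks.

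The files resolve transcript models, which showed that the Nfkb1 level rests on partial ones. Of 7 models, 4 begin at or after the 13th of the 25 exons of the full-length coding model Nfkb1-201, and these 4 took 93.3% to 96.5% of Nfkb1 reads. Nfkb1-207, labelled nonsense-mediated decay and 1924 bases long, held a mean of 58.9% of Nfkb1 TPM, and the 528-base Nfkb1-205 held 26.5%. Nfkb1-201 was listed at 0 reads in 9 libraries and at 5.50 to 6.49 in the WT-labelled libraries of 20 weeks. Models annotated as protein coding held 0.336% to 9.01% of Nfkb1 TPM. Nfkb1-207 spans exons 16 to 25 of Nfkb1-201 and skips exon 22 (chr3:135590780-135590846, GRCm38). The junctions after exon 21 are shown because few 20-base k-mers tell the models apart, with capitals marking the bases of the exon that follows.
Nfkb1-207, exon 21 to exon 23: gctgccaactggcagGGGACATGAAGCAGC
Nfkb1-201, exon 21 to exon 22: gctgccaactggcagGTATTTGACATACTA
In the GENCODE M21 sequences of these 7 models, Nfkb1-207 holds 16 k-mers found in no other of them, and Nfkb1-201 holds 2. The split between models is therefore an estimate, and coverage along the gene is not used here. Nfkb1-204 is 1962 bases in the files and 3383 in GENCODE M21, so its exons in the release used by the authors may differ, as may the k-mer counts. Nfkb1 also overlaps Gm43430 on the same strand.

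Some Nfkb1 models differed in level between groups, while no difference was detectable in the gene sum. The retained-intron model Nfkb1-202 averaged 35.5 TPM in Rag1-/--labelled and 11.8 TPM in WT-labelled cells of 20 weeks, and 46.5 TPM in Rag1-/--labelled and 48.3 TPM in WT-labelled cells of 8 weeks. Nfkb1-203, a partial coding model, averaged 24.5 TPM in Rag1-/--labelled and 43.4 TPM in WT-labelled cells of 20 weeks, and 12.7 TPM in Rag1-/--labelled and 13.4 TPM in WT-labelled cells of 8 weeks. These are descriptions of estimates that share most of their sequence, with no test.

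Tnfaip3 reads went mostly to Tnfaip3-202, a coding model. It held 46.9% ± 3.37 of Tnfaip3 TPM in Rag1-/--labelled and 56.1% ± 6.22 in WT-labelled cells of 20 weeks, and 81.8% ± 3.38 in Rag1-/--labelled and 85.0% ± 3.58 in WT-labelled cells of 8 weeks (SD, n = 3 each). The short model Tnfaip3-204, 456 bases long, held 17.2% ± 3.61 in Rag1-/--labelled and 29.1% ± 7.51 in WT-labelled cells of 20 weeks, and 1.26% ± 1.14 in Rag1-/--labelled and 2.42% ± 1.96 in WT-labelled cells of 8 weeks. These shares rest on few reads: 13.9 to 69.2 per library of 20 weeks and 0 to 12.0 per library of 8 weeks. Since TPM corrects for length, the TPM share of this short model at 20 weeks is far above its share of reads. Tnfaip3-203, a 490-base coding model, had 105, 37.0 and 48.0 reads in the Rag1-/--labelled libraries of 20 weeks and was listed at 0 in the other 9. Those 3 libraries all ran with 24 threads, as did 3 of the other 9. Tnfaip3-202 had 677 to 1526 reads in Rag1-/--labelled and 405 to 944 in WT-labelled libraries of 20 weeks, against 2001 to 3877 reads in Rag1-/--labelled and 2370 to 3610 in WT-labelled libraries of 8 weeks. The retained-intron models were lower at 20 weeks as well. Tnfaip3-205 averaged 1.58 TPM in Rag1-/--labelled and 1.74 TPM in WT-labelled cells of 20 weeks, and 6.62 TPM in Rag1-/--labelled and 5.29 TPM in WT-labelled cells of 8 weeks. Tnfaip3-206 averaged 0.750 TPM in Rag1-/--labelled and 0.497 TPM in WT-labelled cells of 20 weeks, and 2.53 TPM in Rag1-/--labelled and 1.91 TPM in WT-labelled cells of 8 weeks. The read counts are not scaled for depth, and the models were not tested.

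**Figure D4:**
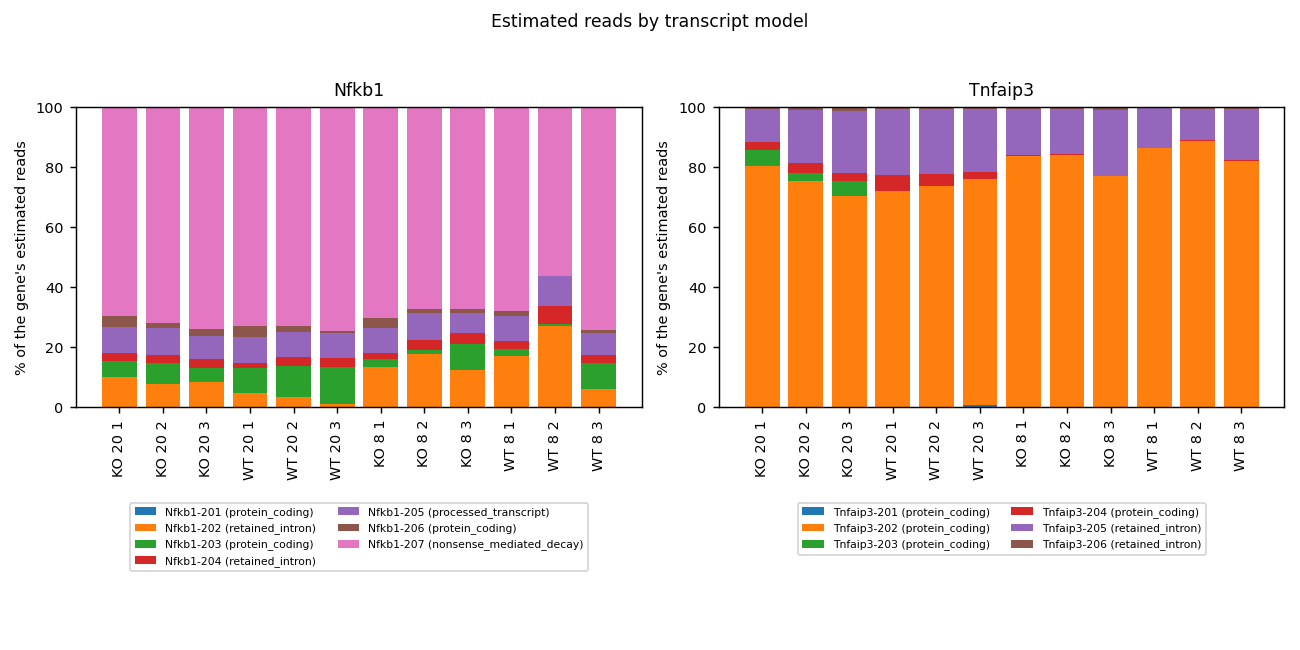
Stacked bars give the share of estimated reads that each transcript model took in Nfkb1 (left) and Tnfaip3 (right), in percent of the gene's reads in each library. Nfkb1-207 is the main part of every Nfkb1 bar, and Tnfaip3-202 of every Tnfaip3 bar; Tnfaip3-203 appears in the 3 Rag1-/--labelled libraries of 20 weeks.

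The rest of the pathway was read through lists of related genes, 20 against 8 weeks. Of 9 other core genes, among them Rela, the partner of p50, and the kinase genes Chuk and Ikbkb, 0 were called, with a median log2 fold change of 0.08. Rela was at 125 ± 9.51 CPM at 20 weeks and 118 ± 34.4 CPM at 8 weeks (SD, n = 6 each). Of 22 adaptors and kinases upstream, 0 were called (median 0.21). Of 14 genes of ubiquitin brakes and linear ubiquitin, a mixed list of enzymes and adaptors, 0 were called (median 0.15). The least adjusted p among them was that of Peli1, 0.0609 by edgeR. At an unadjusted p under 0.05 there were 0 of 9 core genes, 6 of 22 upstream genes and 4 of 14 ubiquitin genes, beside 18.6% of all genes. DESeq2 called 0 core genes, 1 upstream gene (Il1rl1, higher at 20 weeks) and 3 ubiquitin genes (Itch and Peli1 higher, Otulin lower), and limma-voom called 0 in all 3 lists.

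Of 33 tested NF-kB target genes, 2 were called lower and 1 higher (median 0.19), beside 2.9% of all genes called. At an unadjusted p under 0.05 there were 5 higher and 5 lower, beside 18.6% of all genes. Ccl5, a chemokine gene, was lower at 20 weeks (log2 fold change -1.21, SE 0.29, edgeR adjusted p = 0.0497). The chemokine gene Ccl3 was near 0 at 20 weeks, at 0.0386 CPM on average, against 1.05 CPM at 8 weeks (edgeR adjusted p = 0.0439). Irf4, which encodes a transcription factor of activated lymphocytes, was higher at 20 weeks (0.79, SE 0.16, edgeR adjusted p = 0.0256). DESeq2 called 6 target genes and limma-voom 1, Irf4. Averaged over times, 0 genes of these 4 lists were called between genotypes by edgeR, DESeq2 or limma-voom.

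A list of 17 immediate early and heat shock genes, which also respond to tissue dissociation, also differed between times. At 20 weeks 9 of them were called lower and 0 higher, beside 1.93% of all genes called lower, and 16 of the 17 estimates were negative, with a median log2 fold change of -1.01. Fos (-2.14, SE 0.18, edgeR adjusted p = 0.000101), Dusp1 (-1.96, SE 0.16, edgeR adjusted p = 0.000101) and Nr4a1 (-3.07, SE 0.27, edgeR adjusted p = 0.000127) were among those called. So was the heat shock gene Dnajb1 (-0.87, edgeR adjusted p = 0.0181). The list summed to 1104 to 1314 CPM at 20 weeks and 1738 to 3385 CPM at 8 weeks, with no overlap. The lowest sum of 8 weeks, 1738 CPM, was that of Rag1-/--labelled replicate 3. In that library Nfkbia, Nfkbib, Nfkbie, Nfkbiz, Nfkbid, Nfkb1 and Nfkb2 were also lowest among those of 8 weeks. Tnfaip3, at 212 CPM, and Relb, at 6.77 CPM, lay there inside the range of the other libraries of 8 weeks. Rel, at 9.38 CPM, was highest there. The part of dissociation or of sample handling in the lower inhibitor values was not tested.

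**Figure D5:**
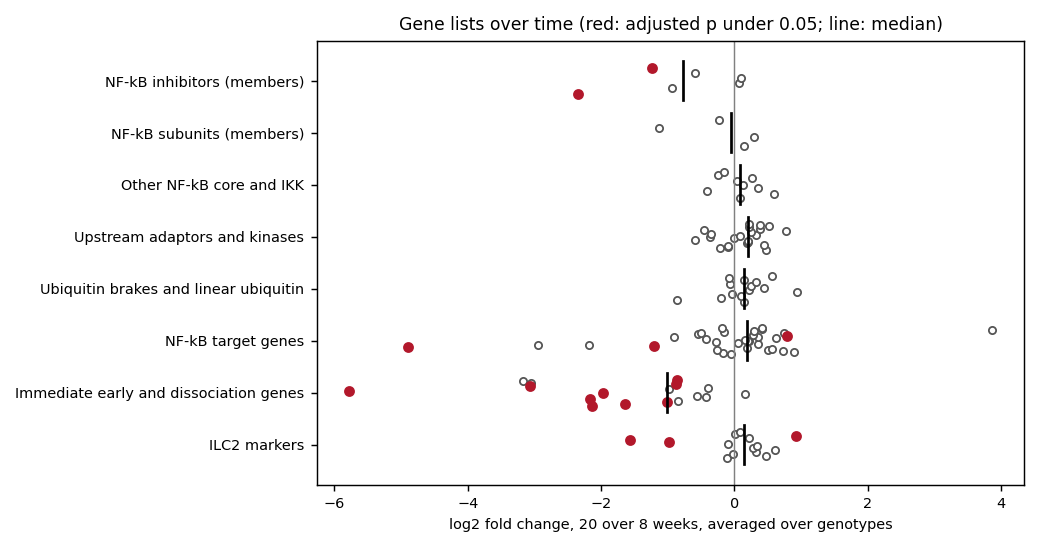
Each point is 1 gene, placed by its log2 fold change of 20 over 8 weeks averaged over genotypes, and the vertical line in each row is the median of its list. Members called are 2 inhibitors. The medians are -0.77 for inhibitors, -0.05 for subunits and -1.01 for the immediate early and dissociation list, which includes heat shock genes, with 0.08 to 0.21 for the other pathway lists.

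Markers of other cells were also read beside these values, since fewer cells of a type and less RNA per cell cannot be told apart in sorted pools. B cell markers, 12 of 12 with reads, summed to 106 to 114 CPM in Rag1-/--labelled and 129 to 161 CPM in WT-labelled libraries of 20 weeks. At 8 weeks they summed to 219, 439 and 137 CPM in Rag1-/--labelled and 169.7, 221 and 128 CPM in WT-labelled libraries, so the top value is that of 1 library, Rag1-/--labelled replicate 2. At an unadjusted p under 0.05, 9 of 11 tested B cell markers were lower at 20 weeks in Rag1-/--labelled cells. Such p-values, in either direction, were met by 8.33% of all genes there. In WT-labelled cells 1 was lower and 2 were higher, beside 13.3% of all genes. For the interaction 6 of 11 met it, beside 2.18%. Averaged over genotypes 1, Cd79b, was called lower (-0.77, SE 0.15, edgeR adjusted p = 0.0240), beside 1.93% of all genes called lower. NK and ILC1 markers, 8 of 8 with reads, summed to 38.5 to 88.4 CPM at 20 weeks and 86.1 to 321 CPM at 8 weeks. Gzmb, 1 of 6 tested, was called lower, beside the same 1.93%. T cell markers summed to 638 to 925 CPM at 20 weeks and 499.8 to 888 CPM at 8 weeks, with 0 called. Dendritic and macrophage markers summed to 50.5 to 58.3 CPM at 20 weeks and 44.1 to 64.1 CPM at 8 weeks, neutrophil and mast cell markers to 13.4 to 21.6 CPM at 20 weeks and 8.34 to 14.8 CPM at 8 weeks, and stromal markers to 122 to 156 CPM at 20 weeks and 112 to 153 CPM at 8 weeks, with 0 called in each by edgeR. Only 8 of 14, 2 of 9 and 4 of 9 markers of these lists, in that order, passed the filter and were tested. DESeq2 called the mast cell marker Cpa3 higher at 20 weeks. Clec9a, Fcgr1, S100a9, Ly6g, Cma1 and Lyve1 were at 0 in all 12 libraries. Of 14 ILC2 markers, Hlf was called higher and the cytokine genes Il13 and Areg lower at 20 weeks, beside 2.9% of all genes called. Il13 averaged 9.47 ± 1.59 CPM at 20 weeks and 19.1 ± 9.31 CPM at 8 weeks (SD, n = 6 each). The part of such cells in the members' values was not tested.

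Genes whose pattern was most like that of the leading members were found by Pearson's r of log2 CPM over the 12 libraries, which share depth and time, so r is a description. For Nfkbia they were Snx22 (r = 0.97), Phf11d (0.96) and Chtf18 (0.96). For Nfkb1 they were Emilin1 (0.91), Tmem140 (0.90) and Irf1 (0.90). Tnfaip3 was added after its values were seen, and its nearest genes were Dusp1 (0.99), Dctpp1 (0.98) and Cdkn1a (0.98). After group means were removed, r was 0.94 for Snx22, 0.91 for Irf1 and 0.75 for Dusp1, so part of the likeness of Tnfaip3 and Dusp1 is their shared difference between times.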

How the data were processed

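RNA was measured in 12 libraries of sorted ILC2s, 4 groups of 3. Per the file headers, the deposited values are expected counts (estimated reads) and TPM per transcript, which the authors estimated with sailfish 0.6.3 (k-mers of 20 bases, Ensembl 76 transcripts). Other tools, among them STAR 2.0.4b and featureCounts 1.4.5, stand in the submitters' processing notes; the headers were followed here. The strand of counting is not given in the sources used here. Of 86127 transcripts, 83739 (97.2%) matched GENCODE M21 (GRCm38) and were summed to 29542 genes; the rest held 1.01% to 1.54% of reads. Of 39 member models, 6 differ in length from GENCODE M21. A k-mer method divides reads that models share by an estimate.

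Expected counts were rounded, filtered with filterByExpr, scaled by TMM and fitted in edgeR 4.0.16 (R 4.3.3) with the quasi-likelihood test on 4 group means, for 14431 genes (common biological coefficient of variation 0.377). Calls were made at 0.05 on p-values adjusted over all genes by Benjamini-Hochberg. CPM values are TMM-scaled. TPM entered only levels, ratios, model shares and length-scaled counts. DESeq2 1.42.0, limma 3.58.1 (voom), other scaling, no filter, thread number, the replicate block, single contrasts and leaving out libraries were alternatives. The fit was tested on simulated data.

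The members, lists and tests were chosen with earlier results of these data known. Named were all members, Rag1 and Thy1. From the lists, genes called in any contrast could be named, and up to 4 of least p in the genotype and time averages. The 3 genes most like the top inhibitor and subunit were also named. Protein sequences were not used here.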

Additional observations from a re-analysis of the deposited data

How the results depend on the processing

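For each of the 4 genotype and interaction contrasts, 0 members were called in all 21 or 22 alternatives. Averaged over genotypes, time called 2 members as reported, 5 with DESeq2, 4 without both libraries that stood apart, 1 without scaling factors, 1 with the thread covariate and 1 to 3 when each library was left out in turn. In Rag1-/--labelled cells it called 1 member as reported, 2 without both libraries and 0 with length-scaled counts, the thread covariate or the Rag1-/--labelled libraries alone, and 0 to 1 when each was left out. In WT-labelled cells it called 1 as reported, 2 with DESeq2, 2 without both libraries and 1 to 3 when each was left out, where Nfkbia and Nfkbid were added without Rag1-/--labelled replicate 3 of 8 weeks. The cause of these changes was not tested. The replicate block gave 2 members averaged over genotypes and 1 in each genotype, with Tnfaip3 at -2.35 (edgeR adjusted p = 0.000729), and changed no call. In these time contrasts the block was the replicate number across both times, so it does not model a host shared by both genotypes. Same-numbered libraries of a time correlated at 0.071 to 0.226 in their deviations from group means, and other pairs at -0.18 to 0.046. Every library correlated best with its own number, so same-numbered libraries may share a host, which the labels do not state. The main fits left them unpaired. With same-numbered libraries of a time as blocks, the genotype and interaction contrasts also called 0 members. Over all genes, time called 419 (278 lower) as reported, 1227 with DESeq2, 983 without both libraries, 297 with no filter, 75 with the thread covariate, 500 (90 lower) without scaling factors and 77 to 927 when each library was left out. Leaving out scaling factors moved the median log2 fold change of all genes by 0.22, and Tnfaip3 and Nfkbid stayed lower. The difference in the inhibitor to subunit ratio between times was -0.54 as a mean of logs and -0.64 without the most abundant member of each class; it kept its sign in all 16 alternatives. Low counts limit Rel, Relb, Nfkb2 and Nfkbid, and the split of reads between models limits Nfkb1.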
